A study of Mus musculus with 5 samples.

Results

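Pxdc1, Pmp22 and Vps37b are 3 genes that had more RNA in GFP-sorted keratinocytes of mouse back skin than in the bulk keratinocyte population. They were chosen by that measured difference: of 18583 genes tested, 27 (0.145 percent) were called higher in GFP-sorted cells and 955 (5.14 percent) lower, and these 3 held places 8, 9 and 10 when the called genes were ordered by size. The 27 became 7 without bulk 1, 1 without bulk 2, 12 without GFP-sorted 1, 11 without GFP-sorted 2 and 96 without GFP-sorted 3. That order took genes with a mean log2 CPM (counts scaled to the depth of the library) of at least 3, no predicted models or pseudogenes, and libraries of the groups that did not overlap. Vps37b, just inside the first 10, differed by 1.01 on the log2 scale, and Sgms2, just outside, by 0.96. The differences of the 3 genes between the groups are therefore given as descriptions with no test. Their rows were found in the deposited count table by Ensembl gene ID, 3 of 56691 IDs.

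RNA was sequenced from cells of back skin of mice at day 28. The sorted cells were selected for GFP, and the labels call their genotype Lrig1 positive and their cell type epidermal stem cells (3 libraries, GFP-sorted 1, 2 and 3). The bulk cells are the population without that selection, labelled WT, basal keratinocytes and epidermal basal cells (2 libraries, bulk 1 and 2). What drives the GFP, the sort gates, the strain and the number of animals are not stated, and nothing says that libraries of a group came from separate animals, so errors measure the spread between libraries. Libraries held 56829330 to 105887450 counts. Lrig1, a membrane protein that limits EGF receptor signalling and is made by cells of the upper hair follicle, was at 209.8, 226 and 213 CPM in GFP-sorted 1, 2 and 3, against 163 and 155 CPM in bulk 1 and 2. The difference of 0.44 ± 0.18 on the log2 scale was not called (edgeR adjusted p = 0.292). GFP-sorted 3 alone held abundant Xist, with 53714 counts against 0 to 8 elsewhere, and had 62 counts of the Y-linked Ddx3y against 1750 to 4462 elsewhere, so the sexes were not balanced between the groups. Values without it are given below.

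The 3 genes belong to different protein families. Pmp22 encodes a small membrane protein with 4 membrane spans, best known as a component of compact myelin in Schwann cells of peripheral nerve. It is also made by many epithelial and mesenchymal cells, and was first found as a gene raised in growth-arrested fibroblasts. Vps37b encodes a subunit of ESCRT-I, a complex on endosomes that takes ubiquitin-tagged receptors, the EGF receptor among them, towards breakdown in lysosomes. ESCRT-0 acts before it, and ESCRT-II, ESCRT-III and the ATPase Vps4 act after it. Pxdc1 encodes a protein with a PX domain, a fold that in other proteins binds phosphoinositide lipids of membranes, and little is known of it in skin.

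Transcript starts were taken from RefSeq. Windows of 250 bases before and 50 bases after a start were searched on both strands for the AP-1 motif TGANTCA, the CRE motif TGACGTCA, the E-box CACGTG, the TATA motif TATAAA and the GC box GGGCGG. The table held 1 start for Pxdc1 and 4 for Pmp22, and 2 of the 3 genes matched (Vps37b did not). Starts 1 and 4 of Pmp22, the outermost, are shown because counts per gene add up RNA from all its starts, and the Pxdc1 start because it is the only one listed. Capitals mark motif matches.
Pxdc1 (chr13:34652632-34652931, minus strand, GRCm38.p6): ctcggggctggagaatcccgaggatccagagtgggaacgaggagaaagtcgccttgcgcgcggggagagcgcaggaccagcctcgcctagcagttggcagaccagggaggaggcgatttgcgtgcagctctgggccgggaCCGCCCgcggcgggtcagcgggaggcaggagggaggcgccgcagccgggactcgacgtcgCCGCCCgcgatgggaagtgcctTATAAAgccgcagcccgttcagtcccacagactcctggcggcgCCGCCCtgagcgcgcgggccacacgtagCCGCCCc
Pmp22, start 1 (chr11:63128732-63129031, plus strand, GRCm38.p6): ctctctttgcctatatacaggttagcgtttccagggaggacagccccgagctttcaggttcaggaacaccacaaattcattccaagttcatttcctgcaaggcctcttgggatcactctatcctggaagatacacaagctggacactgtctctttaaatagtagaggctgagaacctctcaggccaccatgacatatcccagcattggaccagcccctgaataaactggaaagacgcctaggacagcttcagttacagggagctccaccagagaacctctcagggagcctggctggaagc
Pmp22, start 4 (chr11:63132553-63132852, plus strand, GRCm38.p6): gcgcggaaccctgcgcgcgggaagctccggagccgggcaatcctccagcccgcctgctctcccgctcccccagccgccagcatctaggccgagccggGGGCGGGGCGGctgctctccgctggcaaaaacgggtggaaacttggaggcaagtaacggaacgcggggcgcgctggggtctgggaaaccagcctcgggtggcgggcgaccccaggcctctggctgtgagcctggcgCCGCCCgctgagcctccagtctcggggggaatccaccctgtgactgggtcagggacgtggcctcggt
The Pxdc1 window held TATAAA 28 bases before the start (13.6 percent of the 32851 windows in the table hold this motif) and 4 GC boxes (35.7 percent hold at least 1). The window at Pmp22 start 4 held 3 GC boxes, of which 2 share a base, and the window at start 1 held none of the motifs searched. None of these windows held TGANTCA (7.81 percent of all windows do), TGACGTCA (1.79 percent) or CACGTG (7.15 percent). The deposited counts do not separate the Pmp22 starts.

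Pxdc1 (ENSMUSG00000021411.17, chromosome 13) had 211, 242 and 188 CPM in GFP-sorted 1, 2 and 3, against 97.4 and 106.5 CPM in bulk 1 and 2. These values rest on 16636, 16056 and 17523 counts in GFP-sorted cells and on 5824 and 11866 counts in bulk. GFP-sorted 2 was the highest and GFP-sorted 3 the lowest of the sorted libraries, and even the lowest lay 1.76 times above the higher bulk library. The mean was 214 ± 27.3 CPM in GFP-sorted cells and 102 ± 6.43 CPM in bulk (SD, n = 3 and 2), a difference of 1.07 ± 0.20 (SE) on the log2 scale, or 2.09-fold. Across all genes tested, 14.6 percent had every GFP-sorted library above both bulk libraries.

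Pmp22 (ENSMUSG00000018217.13, chromosome 11) had 124, 176 and 147 CPM in GFP-sorted 1, 2 and 3, against 68.4 and 80.0 CPM in bulk 1 and 2. It was the most variable of the 3 genes among sorted libraries: the highest, GFP-sorted 2, was 1.41 times the lowest, GFP-sorted 1. The groups did not overlap, with the lowest sorted library 1.56 times above the higher bulk one. The mean was 149 ± 25.6 CPM in GFP-sorted cells and 74.2 ± 8.22 CPM in bulk (SD, n = 3 and 2), a difference of 1.01 ± 0.22 on the log2 scale, or 2.01-fold.

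Vps37b (ENSMUSG00000066278.7, chromosome 5) had 166, 182 and 216 CPM in GFP-sorted 1, 2 and 3, against 88.2 and 98.9 CPM in bulk 1 and 2. Here GFP-sorted 3 was the highest, the library in which Pxdc1 was lowest among the sorted ones. The lowest sorted library lay 1.67 times above the higher bulk one. The mean was 188 ± 25.7 CPM in GFP-sorted cells and 93.6 ± 7.57 CPM in bulk (SD, n = 3 and 2), a difference of 1.01 ± 0.21 on the log2 scale, or 2.01-fold. Vps37b shares 918 exon bases with Hip1r, an endocytosis gene on the opposite strand in the GENCODE M21 annotation, and the strandedness of the counting is not given, so reads of this stretch cannot be assigned with certainty. Hip1r itself was at 131, 164 and 121 CPM in GFP-sorted cells and at 145 and 199.6 CPM in bulk, overlapping groups with a log2 difference of -0.32 ± 0.23 (edgeR adjusted p = 0.566).

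**Figure D1:**
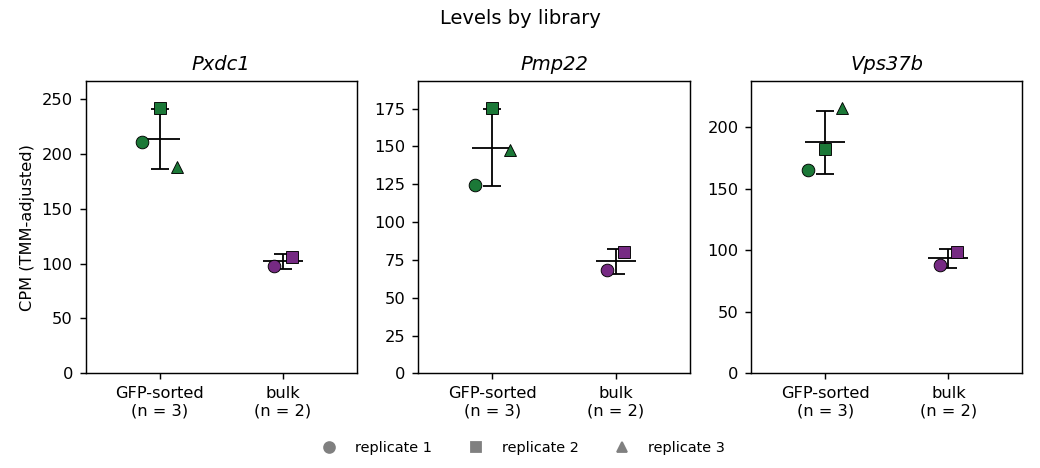
CPM (TMM-adjusted, y axis from 0) of Pxdc1, Pmp22 and Vps37b in each library, with GFP-sorted libraries at the left and bulk at the right of each panel. Symbols mark the replicate and black bars the mean and SD. In each panel all 3 GFP-sorted libraries lie above both bulk libraries.

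Per transcript length the 3 genes stood at nearly the same level. Levels per length are in TPM, here CPM divided by the length of the longest M21 transcript and scaled to the same sum in each library over the 18107 tested genes with a length. Pxdc1 was at 155, 191 and 180.5 TPM in GFP-sorted 1, 2 and 3, against 90.4 and 107 TPM in bulk. Pmp22 was at 135, 204 and 209 TPM, against 93.5 and 118 TPM in bulk. Vps37b was at 129.9, 153 and 221 TPM, against 87.1 and 105 TPM in bulk. By mean TPM the order was Pmp22, Pxdc1, Vps37b in both groups, but within each group the libraries of neighbours in this order overlapped. By rank Pmp22 was at place 699 of 18107 in GFP-sorted cells and at place 1340 in bulk, Pxdc1 at 736 and 1465, and Vps37b at 767 and 1510.

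The size of the difference depended on what the counts were scaled to. Keratinocytes of the basal layer carry the keratins Krt5, Krt14 and Krt15 and the adhesion genes that fix them to the basement membrane. The 12 genes of the basal list summed to 41406, 36018 and 38097 CPM (library size scaling) in GFP-sorted 1, 2 and 3, against 24781 and 28149 CPM in bulk. Most of each sum came from Krt5, Krt14 and Krt15, at 16727, 12055 and 6941 CPM in GFP-sorted 1 and at 9467, 5738 and 4377 CPM in bulk 1. A scaling to this sum follows mainly these 3 keratins, and a scaling to the other genes of the list was not run. Of the 12, 11 had a positive log2 difference (median 0.58) and 0 were called by edgeR. At an unadjusted edgeR p under 0.05, for which no background share was taken, 5 were higher. The DESeq2 Wald test called 2 of the 12 and limma-voom 0. Scaled to the summed counts of these genes, an alternative chosen after seeing the data, the difference was 0.39 on the log2 scale for Pxdc1 (1.31-fold), 0.33 for Pmp22 (1.26-fold) and 0.33 for Vps37b (1.26-fold). On that scale Pxdc1 had 4.71, 6.24 and 5.16 counts per 1000 basal list counts in GFP-sorted 1, 2 and 3, against 4.14 and 3.98 in bulk, and the groups still did not overlap. Pmp22 had 2.78, 4.53 and 4.05, against 2.90 and 2.99 in bulk, so that GFP-sorted 1 lay below both bulk libraries. Vps37b had 3.70, 4.69 and 5.94, against 3.75 and 3.70 in bulk, with GFP-sorted 1 at the level of bulk. In libraries made from many cells, a larger share of cells of a type and more RNA per cell cannot be told apart.

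**Figure D2:**
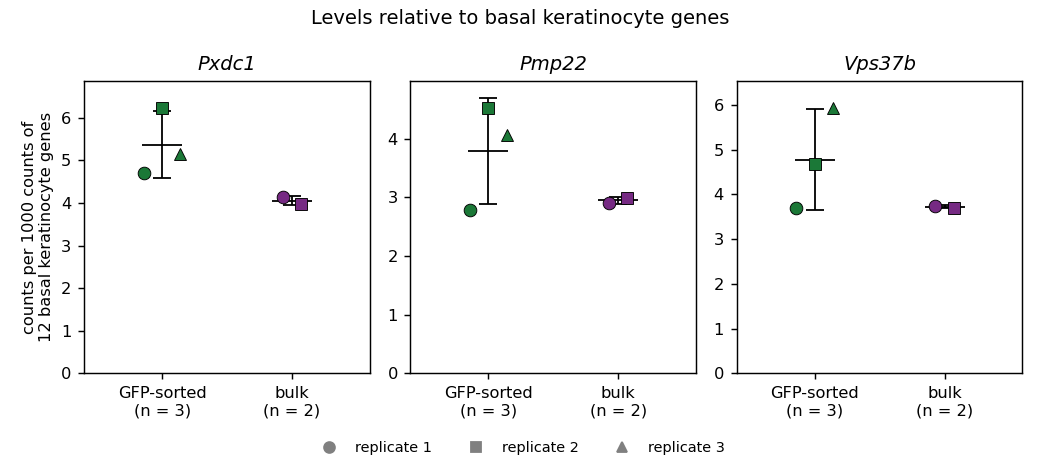
Counts of Pxdc1, Pmp22 and Vps37b per 1000 counts of the 12 basal keratinocyte genes (y axis from 0) in each library, GFP-sorted at the left and bulk at the right, with mean and SD. Most counts of the 12 genes are of Krt5, Krt14 and Krt15. Pxdc1 alone keeps all 3 GFP-sorted libraries above both bulk libraries, and GFP-sorted 1 (circle) lies at or below bulk for Pmp22.

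Other cell types moved between the groups as well, and their part in the differences was not tested. The 14 suprabasal genes summed to 9468, 12673 and 10714 CPM in GFP-sorted 1, 2 and 3, against 27208 and 21010 CPM in bulk, with 9 of 14 called lower, beside 5.14 percent of all genes tested, which is also the background of the other lists here. The 13 tested hair matrix and inner root sheath genes were all called lower. Immune cell genes were also lower, with 11 of 11 Langerhans and myeloid genes and 8 of 8 T cell genes called. Schwann cells and fibroblasts are among the other cells of skin known to make Pmp22, and not the only ones. Markers of Schwann cells went both ways. Sox10, shared with melanocytes, had 0, 0 and 2 counts in GFP-sorted 1, 2 and 3, against 178 and 225 in bulk, and Cdh19, too scarce to be tested, had none in GFP-sorted cells, against 6 and 4 counts in bulk. Of the 8 tested genes 4 had a positive log2 difference, none of them called: Egr2 (0.41), Prx (0.21), Mbp (0.17) and S100b (0.049), of which Mbp and Prx lay above bulk in all 3 sorted libraries. The list of 11 Schwann genes summed to 468, 644 and 673 CPM in GFP-sorted cells and to 479 and 536 CPM in bulk, most of it from Egr2, an immediate early gene, and Mbp. Of its 8 tested genes 2 were called lower and 0 higher by edgeR. Before adjustment, 3 of the 8 had an edgeR p under 0.05 with a fall and 0 with a rise. No share of all genes was taken at that threshold. DESeq2 found 3 lower and limma-voom 2, and both found 0 higher. The 9 fibroblast genes summed to 171, 62.4 and 28.9 CPM in GFP-sorted 1, 2 and 3, against 228 and 196 CPM in bulk, and 2 of 9 were called lower.

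The list of Pmp22 relatives held its close relatives Emp1, Emp2, Emp3 and Lim2, and the more distant tetraspan genes Nkg7, Perp and Tmem47. Of its 6 tested relatives, 1 was called lower and 0 higher by edgeR. Before adjustment, 3 of the 6 had an edgeR p under 0.05 with a fall and 0 with a rise. No share of all genes was taken at that threshold. Of these relatives DESeq2 found 2 lower and limma-voom 1, and both found 0 higher. Their median log2 difference was -0.79, beside 0.05 over all genes tested, of which 5.28 percent were called in either direction. Emp1, an epithelial membrane protein, was the most abundant relative per length among the Emp genes, at 1516, 2740 and 1869 TPM in GFP-sorted 1, 2 and 3, against 1343 and 1963 TPM in bulk. Its log2 difference of 0.55 ± 0.35 was not called (edgeR adjusted p = 0.517), and on this per-length scale GFP-sorted 1 and 3 lay within the bulk range. In CPM GFP-sorted 1, at 2229, lay above the higher bulk library, at 2125. Emp2 had 592, 663 and 497 CPM in GFP-sorted cells, against 697 and 778 CPM in bulk. All 3 sorted libraries lay below bulk, as for 18.5 percent of all genes tested, with a log2 difference of -0.34 ± 0.23 (edgeR adjusted p = 0.544).

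Emp3 was at 1.61, 0.965 and 2.26 CPM in GFP-sorted 1, 2 and 3, against 4.46 and 3.25 CPM in bulk (edgeR adjusted p = 0.153). It was called lower by the DESeq2 Wald test (adjusted p = 0.0395). So it was by edgeR with no filter on low counts (adjusted p = 0.0203) and without GFP-sorted 3 (adjusted p = 0.0460). Nkg7, a gene of cytotoxic lymphocytes that also stands in the T cell list, fell by 3.59 ± 0.38 on the log2 scale (edgeR adjusted p = 0.00148), with 1.09, 0.437 and 0.771 CPM in GFP-sorted cells and 9.45 and 9.12 CPM in bulk. Perp, a desmosome protein of stratified epithelia, had overlapping groups, at 3339, 4075 and 2995 CPM in GFP-sorted cells and 3622 and 2813 CPM in bulk. Tmem47 had 4 to 12 counts in a GFP-sorted library, against 19 and 35 in bulk (edgeR adjusted p = 0.168), and the lens gene Lim2 had no count in any library. Per length, Pmp22 made up 7.20, 6.35 and 8.96 percent of the summed level of Pmp22, Emp1, Emp2 and Emp3 in GFP-sorted 1, 2 and 3, against 5.25 and 4.74 percent in bulk. The Pmp22 shares contain the difference for which Pmp22 was chosen. Emp1 made up 75.4 to 85.3 percent in all libraries.

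Other growth arrest-specific genes, the class in which Pmp22 was first described, were not called: 0 of 6 by edgeR, with 0 at an unadjusted p under 0.05 and 0 by DESeq2 or limma-voom. With 5.28 percent of all genes called, so short a list can be expected to hold no call. Of the 6, 5 had a positive log2 difference, with a median of 0.31. Gas1, a membrane protein that slows the cell cycle, had 45.8, 44.9 and 48.2 CPM in GFP-sorted cells, against 39.1 and 27.7 CPM in bulk, with a log2 difference of 0.47 ± 0.21 (edgeR adjusted p = 0.322).

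ESCRT-I, the complex of Vps37b, is built from Tsg101, Vps28, 1 of the Vps37 proteins (Vps37a, Vps37b, Vps37c or Vps37d), and 1 of Mvb12a, Mvb12b or Ubap1. All 8 other subunit genes were tested. Without a term for the title number (the number in the sample title) 0 were called by edgeR, while 1 was higher at an unadjusted p under 0.05. Neither DESeq2 nor limma-voom called any (0 each). Over all genes 0.145 percent were called higher and 5.14 percent lower, so 0 of 8 is near the background. The median log2 difference of the 8 was 0.088. With a title number term edgeR called 3 of the 8 higher (Vps28, Ubap1 and Vps37d), beside 16.4 percent of all genes. In that fit GFP-sorted 3, the only library with its title number, carries no weight in the group difference. Tsg101, which binds ubiquitin and holds the complex, had 75.8, 66.6 and 57.6 CPM in GFP-sorted 1, 2 and 3, against 73.0 and 58.3 CPM in bulk. These groups overlapped fully, with a log2 difference of 0.02 ± 0.20 (edgeR adjusted p = 0.971). Vps28, the other core subunit, differed by 0.20 ± 0.25 (adjusted p = 0.753).

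Ubap1 was the 1 subunit with an unadjusted p under 0.05, at 104, 113 and 90.2 CPM in GFP-sorted 1, 2 and 3, against 79.3 and 70.5 CPM in bulk (log2 difference 0.45 ± 0.19, edgeR adjusted p = 0.300). The other 2 genes of that position, Mvb12a and Mvb12b, differed by -0.01 ± 0.28 and -0.35 ± 0.20 (adjusted p = 0.992 and 0.477).

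Without a title number term none of the paralogs of Vps37b was called. Vps37c had 61.8, 61.8 and 62.7 CPM in GFP-sorted 1, 2 and 3, against 68.1 and 69.6 CPM in bulk, so that it lay slightly lower in every sorted library (log2 difference -0.15 ± 0.17, edgeR adjusted p = 0.717). Vps37a had 31.7, 35.8 and 64.7 CPM, against 39.9 and 39.4 CPM in bulk. Its high value came from GFP-sorted 3 alone, and without that library its log2 difference was -0.24, against 0.15 with it. Vps37d was scarce, at 2.09, 1.69 and 0.975 CPM in GFP-sorted cells and 0.886 and 1.28 CPM in bulk (adjusted p = 0.608). With a title number term edgeR called Vps37d higher (log2 difference 0.79, adjusted p = 0.0151), on 1 residual degree of freedom. That fit gives no weight to GFP-sorted 3, the sorted library that lay within the bulk range. Per length, Vps37b was the most abundant of the 4 paralogs in every library. It made up 69.1, 70.8 and 71.5 percent of their summed level in GFP-sorted 1, 2 and 3, against 52.1 and 54.4 percent in bulk. The share of Vps37c was 24.2, 22.6 and 19.5 percent in GFP-sorted cells, against 37.7 and 35.9 percent in bulk. These shares do not change with the scaling between libraries, but they contain the difference for which Vps37b was chosen.

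**Figure D3:**
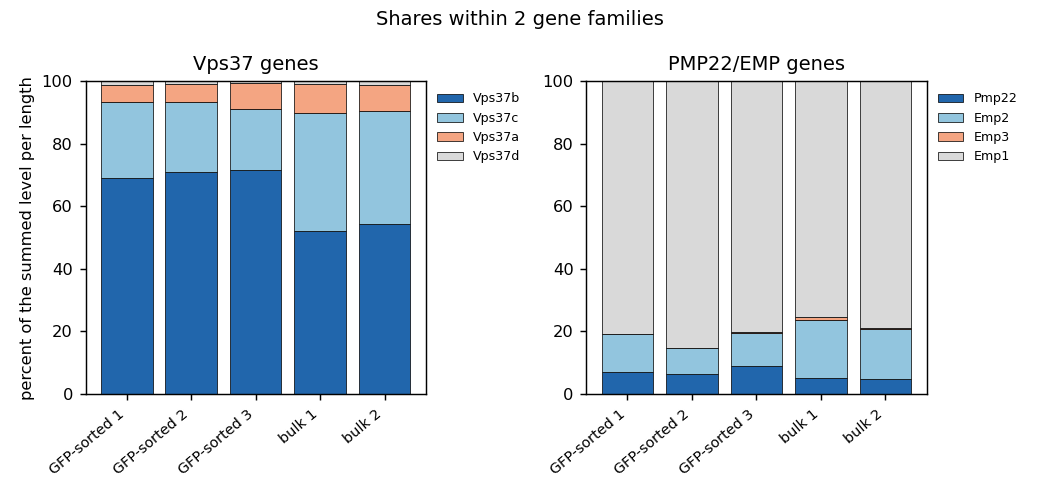
Share of each gene in the summed level per length (TPM, percent, y axis from 0 to 100) of the 4 Vps37 genes and of Pmp22, Emp1, Emp2 and Emp3, in each library. The Vps37b segment fills 69.1 to 71.5 percent in GFP-sorted libraries and 52.1 to 54.4 percent in bulk, and Emp1 fills most of the right panel in every library. The shares of Vps37b and Pmp22 contain the differences for which these genes were chosen.

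Over ESCRT-0, ESCRT-I without Vps37b, ESCRT-II, ESCRT-III and Vps4, all 29 genes were tested. Without a term for the title number edgeR, DESeq2 and limma-voom each called 0, near the background of 5.28 percent of all genes, and Ubap1 was the 1 with an unadjusted p under 0.05. Their log2 differences ran from -0.35 to 0.54, with a median of 0.13. Of ubiquitin ligases, adaptors and deubiquitinases that act on receptors before or at this step, 1 of 12 was called, beside 5.28 percent of all genes. Sh3kbp1, an adaptor that links the ubiquitin ligase Cbl to endocytosis, fell by 1.24 ± 0.24 on the log2 scale (edgeR adjusted p = 0.0247). It had 8.004, 8.85 and 8.28 CPM in GFP-sorted 1, 2 and 3, against 24.3 and 15.4 CPM in bulk. The call was lost without bulk 1 (log2 difference -0.87, adjusted p = 0.230), GFP-sorted 1 (0.0739) or GFP-sorted 2 (0.0613), and after removal of the trend with transcript length and GC content (0.0744). Cbl itself had 61.5, 106.8 and 82.2 CPM in GFP-sorted cells and 99.4 and 173 CPM in bulk, which overlapped (adjusted p = 0.311).

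The PX domain family of Pxdc1 holds the sorting nexins, which shape and sort endosomes, together with subunits of the phagocyte NADPH oxidase, phospholipases D and others. Of 48 listed genes 47 were tested, and 2 were called lower and 0 higher by edgeR. These calls are near the background of 5.14 percent called lower and 0.145 percent higher. At an unadjusted p under 0.05, 1 was higher and 9 lower, a threshold at which no share of all genes was taken. DESeq2 called 5 lower and 0 higher, beside 1310 of all genes lower, and limma-voom 2 lower and 0 higher. The median log2 difference of the 47 genes was -0.06, and the highest was 0.70, for Snx7 (edgeR adjusted p = 0.341), which is named because of this value. The 2 genes called by edgeR were phagocyte oxidase subunits. Ncf1 fell by 3.10 ± 0.39 (edgeR adjusted p = 0.00326) and Ncf4 fell by 2.93 ± 0.51 on the log2 scale (adjusted p = 0.0155). Ncf1 had 22, 14 and 34 counts in GFP-sorted 1, 2 and 3, against 167 and 238 in bulk, and Ncf4 had 29, 9 and 48, against 169 and 271. Both are genes of immune cells, whose markers were lower too. Ncf4 was not called without bulk 1 (adjusted p = 0.0784) or bulk 2 (0.0665). Snx11, a sorting nexin, had 15.7, 14.7 and 12.5 CPM in GFP-sorted cells, against 25.1 and 25.5 CPM in bulk. It was not called by edgeR as reported (adjusted p = 0.0539) or by limma-voom. The DESeq2 Wald test called it lower. So did edgeR with upper quartile scaling (adjusted p = 0.0479), library size alone (0.0242), no filter on low counts (0.0246) or a minimum of 1 CPM (0.0403). Removal of the length and GC trend gave a call as well (0.0185), as did a title number term.

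**Figure D4:**
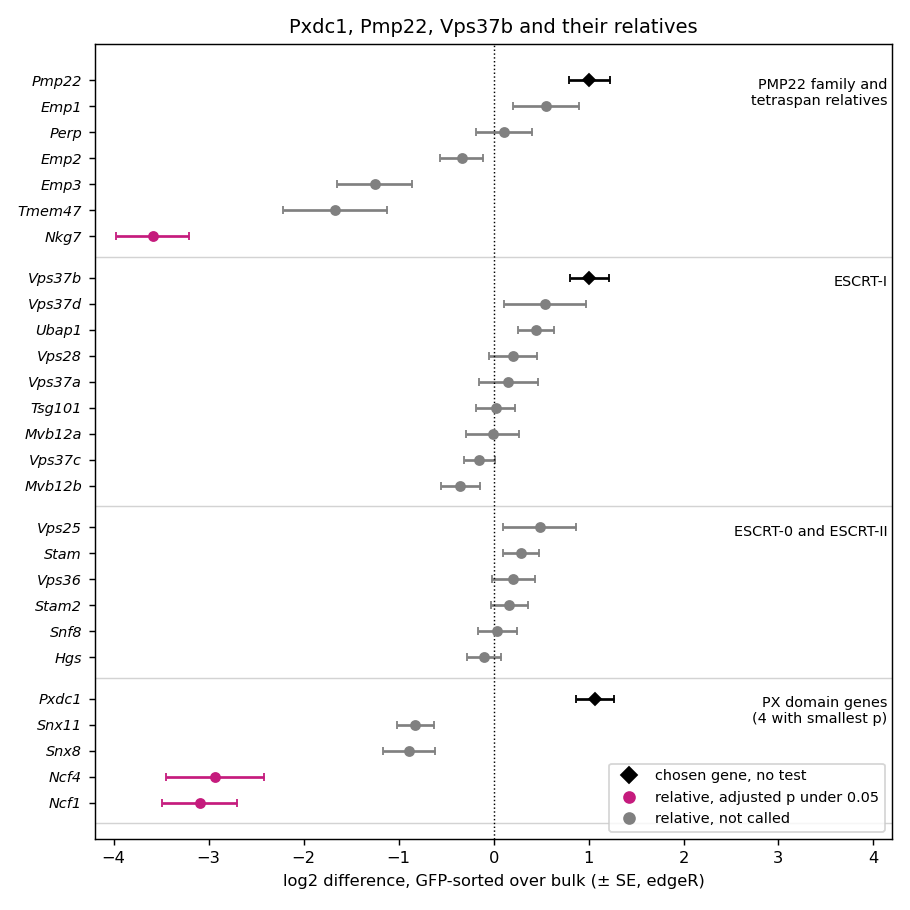
Log2 difference (GFP-sorted over bulk, x axis, ± SE from edgeR) of Pmp22, Vps37b and Pxdc1 (black diamonds, chosen for this difference) and of relatives, in blocks: the tested Pmp22 relatives, the other ESCRT-I genes, ESCRT-0 and ESCRT-II, and the 4 PX domain genes with the smallest p. Coloured points passed the adjusted p threshold of 0.05. Of those shown, Nkg7, Ncf4 and Ncf1 did, all lower in GFP-sorted cells.

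Over all lists of relatives together, immediate early genes included, 116 genes were tested. By edgeR 0 were called higher and 4 lower (3.45 percent, beside 5.28 percent of all genes). Before adjustment, 14 of the 116 had an edgeR p under 0.05 with a fall and 4 with a rise. No share of all genes was taken at that unadjusted threshold, here or for single lists, so these counts have no background. The DESeq2 Wald test found 8 lower and 1 higher, beside 1310 lower and 188 higher of all genes. With limma-voom 4 were lower and 0 higher, beside 989 lower and 37 higher of all genes. Immediate early genes, which cells switch on within minutes of a stimulus or of tissue dissociation, were abundant in every library: the 16 listed summed to 35151, 48820 and 58367 CPM in GFP-sorted 1, 2 and 3, against 33311 and 45377 CPM in bulk. None of the 16 was called by edgeR, 2 were higher at an unadjusted p under 0.05, DESeq2 called 1 and limma-voom 0. Their median log2 difference was 0.40, and in 7 of 16 every sorted library lay above both bulk libraries (14.6 percent of all genes did), among them Junb, with 4538, 3835 and 5260 CPM in GFP-sorted 1, 2 and 3 and 2864 and 2739 CPM in bulk. Their part in the differences of Pxdc1, Pmp22 and Vps37b was not tested.

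The genes whose pattern over the 5 libraries came nearest to each of the 3 were found by the root mean square difference of log2 CPM, after centring each gene between its group means, among the 8995 other genes with a symbol and a mean log2 CPM of at least 3. For Pxdc1 they were Mt2 (0.094), a metallothionein, Fst (0.105), a secreted activin inhibitor, Dusp10 (0.123), a phosphatase of MAP kinases, Maff (0.127), a small Maf transcription factor, and Sgms2 (0.129), a sphingomyelin synthase. For Pmp22 they were Ch25h (0.072), which makes 25-hydroxycholesterol, Sgms2 (0.091), Maff (0.119), Fst (0.125) and Plet1 (0.138), a surface protein of the upper hair follicle. Vps37b stood with other genes: Tsc22d1 (0.085), Efemp1 (0.101), Cnksr1 (0.109), the fructose transporter Slc2a5 (0.127) and the death receptor Fas (0.153). Those of Vps37b were like it highest in GFP-sorted 3, Tsc22d1 for instance with 394, 422 and 524 CPM in GFP-sorted 1, 2 and 3, against 237 and 261 CPM in bulk. Mt2, nearest to Pxdc1, was lowest of the sorted libraries in GFP-sorted 3, with 689, 799.8 and 538 CPM, against 276 and 335 CPM in bulk. Pmp22 and Pxdc1 held place 6 in each other's order, while Vps37b was at place 42 for Pxdc1 and at place 11 for Pmp22. These orders rest on 5 libraries and largely on the group difference itself. By Pearson correlation, which ignores the size of a difference, 1 of the 5 genes was shared for each.

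The differences of the 3 genes kept their direction under each alternative run. Over 16 alternatives other than the basal scaling they ran from 0.94 to 1.15 for Pxdc1, from 0.79 to 1.12 for Pmp22 and from 0.84 to 1.09 for Vps37b. The genes were chosen with every GFP-sorted library above both bulk libraries. Leaving out a library could therefore hardly reverse a direction, and the kept direction adds no support. Pmp22 was lowest when the trend of the libraries with transcript length and GC content was removed together with a term for the title number, and Pxdc1 with library size alone as the scaling. Without GFP-sorted 3, the library with Xist, the differences were 1.15, 1.01 and 0.89 for Pxdc1, Pmp22 and Vps37b. Scaling to basal keratinocyte genes lay outside these ranges, as given above.

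**Figure D5:**
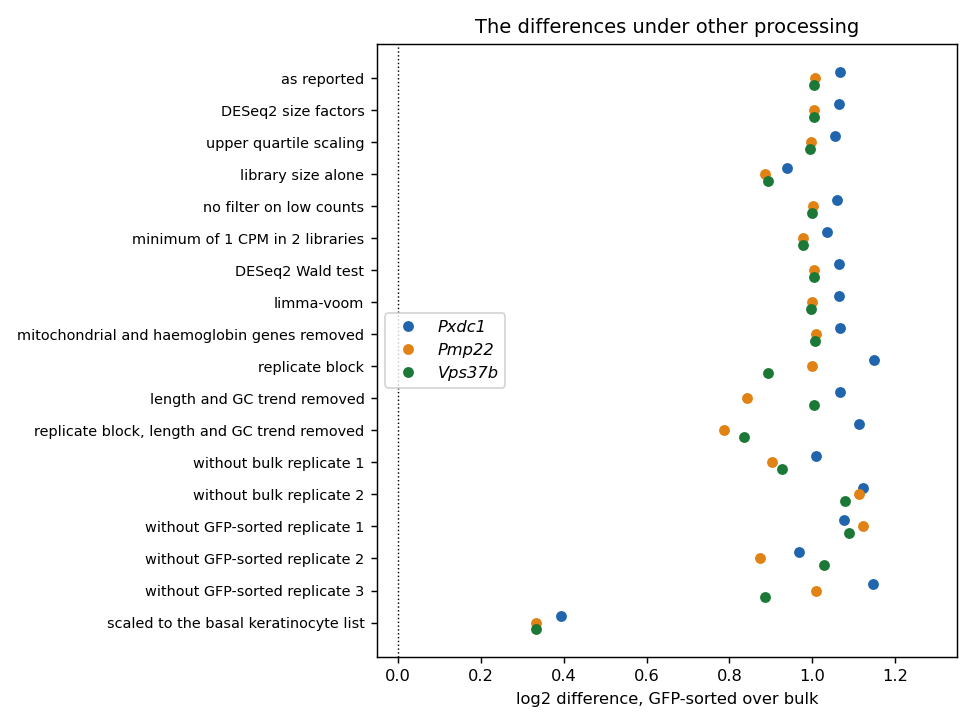
Log2 difference (GFP-sorted over bulk, x axis) of Pxdc1, Pmp22 and Vps37b as reported and under each alternative, 1 row per alternative. Points lie between 0.79 and 1.15 except in the bottom row, scaling to the basal keratinocyte list, where they lie between 0.33 and 0.39.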

How the data were processed

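RNA of 3 GFP-sorted and 2 bulk keratinocyte samples was measured by RNA sequencing. The authors deposited raw counts per Ensembl gene, as whole numbers with 1 column for each library and no normalization. The submitters' processing notes name STAR and the build GRCm39. Software versions, the counting tool, its annotation and its strandedness were not given in the sources used here. Symbols, lengths and overlaps came from GENCODE M21 (GRCm38), by ID without version (52073 of 56691 IDs matched), and promoter windows from RefSeq (GRCm38.p6). As the builds differ, no coordinates were joined to the counts.

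Counts were tested with edgeR 4.0.16 in R 4.3.3 (filterByExpr with a minimum count of 10 and a minimum total of 15, TMM scaling, a group term, two-sided quasi-likelihood test, Benjamini-Hochberg adjustment over 18583 genes, threshold 0.05, 3 residual degrees of freedom), and the script was tested on simulated data. CPM are TMM-adjusted except in sums over lists, which use library size. Alternatives used DESeq2 1.42.0, limma 3.58.1, other scalings and filters, removal of the trend with length and GC content (loess, span 0.3), a title number term and leaving out each library. The 3 genes, the lists and the tests were chosen with earlier results of these data known. Named were the 3 genes, Lrig1, called relatives, genes among the 4 with the smallest p of a list (all of ESCRT-I and of the Pmp22 relatives), the 5 nearest by pattern, and Sgms2. Beyond that rule Hip1r, Snx7, Junb and cell type markers are named, chosen after their values were seen. Some markers of the Schwann cell list are not reported here. Counts carry no molecular identifiers. Libraries of a group differed beyond sampling noise.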

Additional observations from a re-analysis of the deposited data

How the results depend on the processing

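The log2 differences of Pxdc1, Pmp22 and Vps37b moved by less than the spread between replicates in 16 alternatives. They moved by more when scaled to basal keratinocyte genes (0.39, 0.33 and 0.33). That spread was the pooled SD of log2 CPM within groups, 0.159, 0.223 and 0.172. With a title number term and trend removal together, Pmp22 (0.787, against 1.007 as reported) and Vps37b (0.836, against 1.005) came close to this limit. Leaving out 1 library gave 0.97 to 1.15 for Pxdc1, 0.87 to 1.12 for Pmp22 and 0.89 to 1.09 for Vps37b. Genes called higher numbered 27, against 10 with library size alone, 258 with no filter on low counts, 188 by the DESeq2 Wald test and 66 after removal of the length and GC trend. Leaving out 1 library gave 1 to 96 (7 and 1 without bulk 1 and bulk 2, and 12, 11 and 96 without GFP-sorted 1, 2 and 3). Genes called lower numbered 955, against 1660 with no filter and 479 to 1109 without 1 library (516 and 479 without bulk 1 and bulk 2). Relatives called numbered 4, against 8 with no filter, 9 by DESeq2 and 2 to 7 without 1 library (2 without bulk 1, 7 without GFP-sorted 3). A fit with 1 bulk library assumes that it varies like the sorted ones. Library size alone put the median log2 difference of all genes at -0.068, against 0.051 as reported. The title numbers match between replicates 1 and between replicates 2 of the groups, with no label saying what they name. GFP-sorted 3 shares its title number with no other library. A fit with the title number as replicate block therefore gives it no weight in the group difference, which rests on GFP-sorted 1 and 2 and bulk 1 and 2. Across genes, the deviations of same-numbered libraries correlated (Pearson r = 0.440, genes not being independent). With the replicate block, on 1 residual degree of freedom, 3040 genes were called higher (16.4 percent of all tested), 3652 lower (19.7 percent) and 44 relatives. These are 44 of 116 relatives, beside 36 percent of all genes called in either direction. The 44 include 6 higher and 1 lower of the 29 ESCRT genes, which is also to be read beside these shares. Lrig1 was called too (edgeR adjusted p = 0.00676). With the block and this trend correction together the counts were 2344, 2910 and 31, with 29 percent of all genes called in either direction. Differences of uncalled genes that changed sign were Perp at -0.021, Tsg101 at -0.11 and Snf8 at -0.094 with library size alone, Tsg101 at -0.010 with a minimum of 1 CPM, Perp at -0.038, Tsg101 at -0.18 and Snf8 at -0.19 after trend removal, Vps37a at -0.23 and Mvb12a at 0.19 with the block, and Hip1r at 0.081, Gas5 at -0.031, Tsg101 at -0.072 and Snf8 at -0.060 with both. Without 1 library the range was -0.074 to 0.31 for Perp, -0.025 to 0.38 for Stam2, -0.21 to 0.013 for Hgs, -0.14 to 0.20 for Tsg101, -0.020 to 0.37 for Vps28, -0.24 to 0.34 for Vps37a, -0.27 to 0.20 for Mvb12a, -0.072 to 0.55 for Vps36, -0.085 to 0.16 for Snf8, -0.11 to 0.87 for Chmp2b, and Perp was at -0.022 without GFP-sorted 2. The cause of these moves was not tested. Depth did not limit the 3 genes, whose lowest count was 4089.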
